A study of Drosophila melanogaster with 6 samples.

Results

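The genes described here are the Odd-skipped family of Drosophila melanogaster, drm, sob, odd and bowl, in wing imaginal discs that overexpress Yki with or without RNA interference against pan. The features of the deposited expression table that carry 1 of these gene symbols were taken, and each of the 4 genes had 1 feature among the 10117 named genes and 11303 features tested. The genes drm, sob and odd were chosen because their levels differed between these same samples. Their difference between the groups is therefore given as a description with no test. The fourth gene, bowl, was to be included whenever it was measured, whatever its value, so its difference is given with its test.

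Odd-skipped proteins are zinc finger transcription regulators. The gene odd was named as a pair-rule gene of the embryo, and the names of sob (sister of odd and bowl) and bowl (brother of odd with entrails limited) mark them as its relatives. The gene drm (drumstick) encodes a short protein that binds Lines, a protein that otherwise lowers the amount of Bowl, and thereby lets Bowl accumulate. In the leg disc, odd, sob and drm respond to Notch at the segment borders and take part in joint formation. In the wing disc, the balance of Lines and Bowl takes part in separating the flat peripodial cells from the columnar cells of the disc proper.

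The samples are 6 single-channel arrays of total RNA from wing discs, 3 per group. In the Yki group, the apterous (ap) driver expressed YAP/Yki, the Hippo pathway effector that drives growth, and in the pan RNAi group the same driver expressed YAP/Yki together with RNA interference against dTcf/pan, through which Wg (Wnt) signals reach DNA. Dissection of the discs came 7 days after induction of the transgenes. Both groups thus share the driver and Yki, and the samples include neither discs that lack Yki nor a control hairpin. The ap driver is active in dorsal cells, whereas RNA was taken from the disc tissue as a whole. Neither the age and sex of the larvae nor the number of discs per sample is stated in the labels. Because the RNA is from bulk tissue, fewer cells that express a gene and less RNA per cell cannot be told apart.

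Of 11 wing disc identity markers looked up, 10 were measured, among them the dorsal selector gene ap (10.89 ± 0.01 (SD) without and 11.27 ± 0.03 with pan RNAi) and the pouch gene nub (10.84 ± 0.03 and 9.72 ± 0.17). Log2 levels on the arrays ran from 2.74 to 14.06. Correlations between arrays were 0.994 to 0.996 within the groups and 0.980 to 0.986 between them. The pan transcript was not analysed here, so its depletion was not checked. The labels do not say that the 3 samples of a group came from separate crosses, and the spread behind each p-value may therefore be technical.

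The transcripts of drm, sob and odd were lower in every pan RNAi array than in any Yki array, and that of bowl was at about the same level in both groups. The log2 level of drm was 11.71, 11.91 and 11.82 in Yki replicates 1, 2 and 3 and 9.70, 10.03 and 10.02 in pan RNAi replicates 1, 2 and 3. The lowest Yki array thus stood 1.67 log2 units above the highest pan RNAi array, against a spread of 0.20 among the Yki arrays and 0.33 among the pan RNAi arrays. The group means were 11.81 ± 0.10 (SD, n = 3) and 9.92 ± 0.19, a change of −1.89 ± 0.10 (SE of the limma fit). This corresponds to a 3.71-fold lower level (95% confidence interval 3.13 to 4.40), or 26.9% of the Yki level.

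For sob, which encodes a zinc finger protein closely related to Odd, the levels were 10.07, 10.40 and 10.43 in the Yki arrays and 8.20, 8.58 and 8.58 in the pan RNAi arrays. Replicate 1 was the lowest of its group on both sides. The groups were separated by 1.49 log2 units, with a spread of 0.36 among the Yki arrays and 0.39 among the pan RNAi arrays. Mean levels were 10.30 ± 0.20 and 8.45 ± 0.22, a change of −1.84 ± 0.14. The level with pan RNAi was 27.8% of that without (95% confidence interval 22.2% to 34.9%).

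For odd, the levels were 9.50, 9.38 and 9.51 without pan RNAi. They were 7.89, 8.15 and 8.16 with it. The Yki arrays lay within 0.13 log2 units of each other, the closest of the 4 family genes, and the groups were separated by 1.21. Mean levels were 9.46 ± 0.08 and 8.07 ± 0.16 in the Yki and pan RNAi arrays, a change of −1.40 ± 0.09. At 38.0% of the Yki level (95% confidence interval 33.0% to 43.8%), odd retained a larger share of its level than drm and sob did.

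The level of bowl, which encodes the family member whose protein is held down by Lines, was 11.14, 11.01 and 10.97 in the Yki arrays. It was 10.89, 11.12 and 11.05 in the pan RNAi arrays. These ranges overlap. The means were 11.04 ± 0.09 and 11.02 ± 0.12, with a change of −0.02 ± 0.08 (limma adjusted p = 0.881 over all tested features). The 95% confidence interval of the level with pan RNAi ran from 86.9% to 112% of that without. Since Lines acts on Bowl protein, the array says nothing of the amount of Bowl protein. In all, 3 of the 4 family genes had lower, non-overlapping levels with pan RNAi, where 21.6% of all tested features did. The 3 were chosen on this contrast, so nothing is read from that share.

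**Figure D1:**
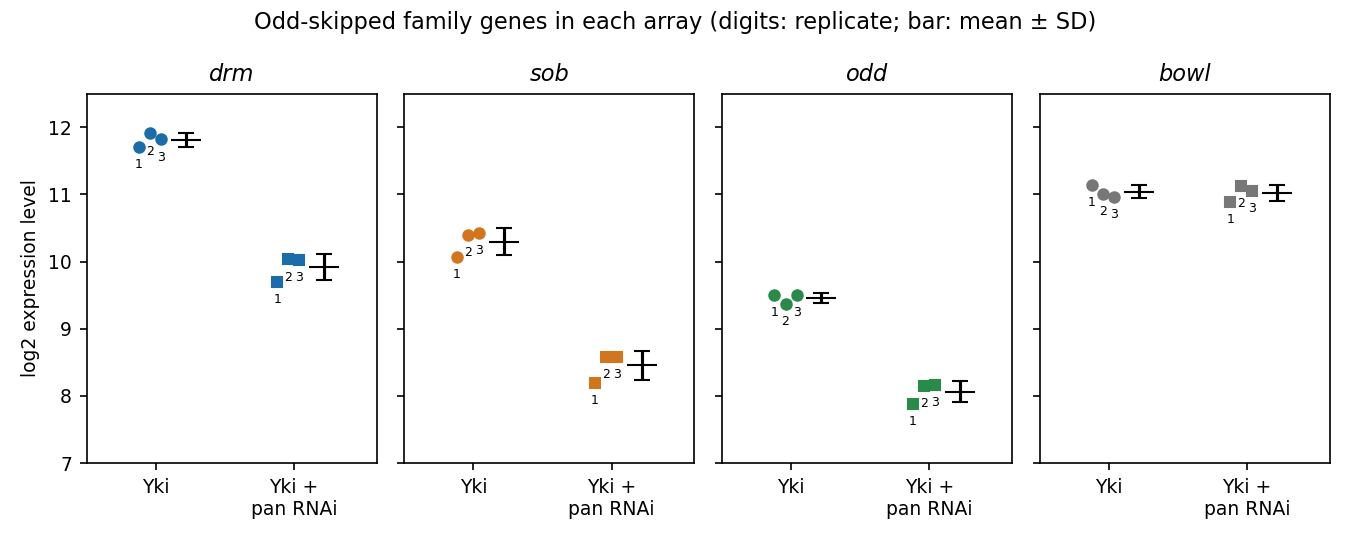
Log2 expression level (y axis) of drm, sob, odd and bowl in each array of the Yki group (circles) and of the pan RNAi group (squares), with replicate numbers beside the points and the mean ± SD of 3 arrays as black bars. The 2 groups are apart by 1.67, 1.49 and 1.21 log2 units for drm, sob and odd and overlap for bowl.

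The lower levels of drm, sob and odd were also alike from array to array. Relative to the Yki mean of the same gene, drm stood at −2.11, −1.78 and −1.79 in pan RNAi replicates 1, 2 and 3. The values for sob were −2.10, −1.72 and −1.72, and those for odd were −1.58, −1.31 and −1.30. In each pan RNAi array, drm and sob thus lay below odd, and for all 3 genes replicate 1 was the lowest. As a share of the Yki mean, the levels in replicate 1 were 23.1% for drm, 23.3% for sob and 33.5% for odd. In the other arrays the shares were between 29.0% and 30.5% for drm and sob, and 40.2% and 40.6% for odd. For bowl too, replicate 1 was the lowest pan RNAi array, at 90.2% of the Yki mean. Across all tested features, pan RNAi replicate 1 was the lowest of its group in 29.8%. Among the 143 features that fell 2-fold or more and passed an adjusted p of 0.05, it was the lowest in 74.8%. Without pan RNAi replicate 1 the changes were −1.78 for drm, −1.72 for sob and −1.31 for odd.

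Within the Yki group, the 3 genes did not share an order. Replicate 1 was 0.10 log2 units below the group mean for drm and 0.23 below it for sob, and replicate 2 was the lowest for odd, by 0.09. The changes of drm and sob differed by 0.05, less than the SD within the groups. The change of odd was smaller in size than that of drm by 0.50 and than that of sob by 0.45. Ranked from the most negative change among the 10117 named genes, drm was at 18, sob at 20 and odd at 58, against 3838 for bowl.

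The likeness of 2 genes was measured as the Euclidean distance between their levels over the 6 arrays, each set relative to the gene's own Yki mean. By this measure the nearest of all 10116 other named genes to drm was sob, at a distance of 0.20, and the nearest to sob was drm. The gene odd was at rank 39 from drm and 37 from sob. Seen from odd, the ranks were 114 for drm and 109 for sob. From drm, bowl was at rank 3735. These ranks are a description of 6 arrays in which each gene was compared across the same contrast, and give most weight to the size of the change.

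Outside the family, the 8 named genes nearest to the mean of drm, sob and odd were ana, Ppn, neo, smal, CG34174, al, Cpr65Ec and CG31955, at distances of 0.20 to 0.33. The nearest, ana (anachronism, which encodes a secreted glycoprotein), was at 11.83, 11.96 and 11.99 in the Yki arrays and 9.85, 10.20 and 10.33 in the pan RNAi arrays. For Ppn (papilin, an extracellular matrix protein), the mean level was 10.63 ± 0.05 without and 8.82 ± 0.15 with pan RNAi. The homeobox gene al (aristaless), which acts in distal appendage patterning, was at 11.35, 11.19 and 11.11 without pan RNAi. It was at 9.23, 9.67 and 9.66 with it, so that replicate 1 was again the lowest. The mean changes of the 8 genes were between −1.82 (smal) and −1.64 (CG31955). They are given here without a test because the genes were picked for this pattern. Below, CG31955 and al appear with a p-value, as a flanking gene of bowl and as a member of the leg list.

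**Figure D2:**
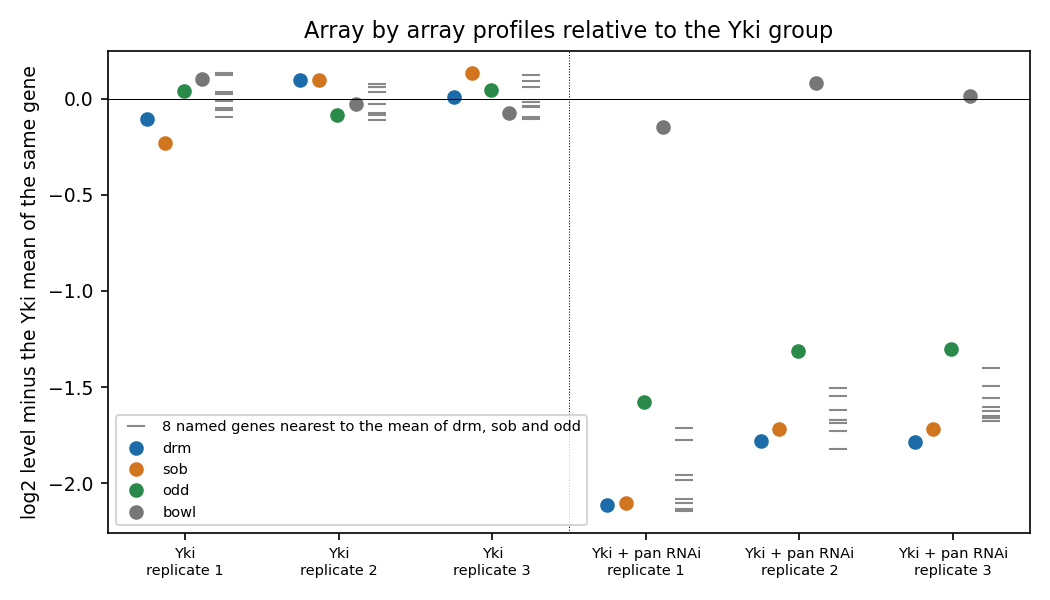
Log2 level minus the Yki mean of the same gene (y axis) in each of the 6 arrays (x axis), for drm, sob, odd and bowl (coloured points) and for the 8 named genes nearest to the mean of drm, sob and odd (grey dashes). In the pan RNAi arrays the points of drm, sob and odd are between −2.11 and −1.30, lowest in replicate 1, and those of bowl stay between −0.15 and 0.08.

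The genes drm, sob and odd follow each other on chromosome arm 2L, and bowl lies on the same arm. In the RefSeq gene order, 6 other genes lie between drm and odd, of which 1 codes for protein and 2 noncoding genes were tested here. Neither noncoding gene passed the test. On one side of sob, lncRNA:CR43822 was at 7.10 ± 0.07 without and 7.21 ± 0.19 with pan RNAi (adjusted p = 0.466). On the other, lncRNA:CR43823 was at 6.18 ± 0.12 and 6.25 ± 0.12 (adjusted p = 0.573). Both levels were below the array medians of 8.41 to 8.52.

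Of the 10 tested genes that flank the drm, sob and odd group, 5 on each side, 2 fell and 0 rose. In all features tested, 13.4% were lower and 12.1% higher at this adjusted p under 0.05. The 2 were CG17593 (−0.42 ± 0.07, adjusted p = 0.0057) and for (foraging, a cGMP-dependent protein kinase gene; −0.27 ± 0.05, adjusted p = 0.00928). The nearest tested genes on either side were IFT57, an intraflagellar transport gene, at 6.57 ± 0.08 and 6.79 ± 0.18 (adjusted p = 0.14), and Ugt36A1, at 8.75 ± 0.09 and 8.90 ± 0.17 (adjusted p = 0.266). The remaining 6, CG3213, CG8851, Spindly, CG15418, mir-4972 and Drgx, had changes of −0.12 to 0.21 and did not pass the test. Spindly passed with median centring and with an intensity trend (lowest adjusted p = 0.0432).

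Around bowl, 2 of the 10 flanking genes fell and 2 rose, near the shares of all features tested (13.4% lower and 12.1% higher). The largest difference was that of CG31955, which fell by 1.64 ± 0.09 (adjusted p = 0.000252) and is also among the 8 genes nearest to drm, sob and odd. It was at 8.19, 7.97 and 8.02 in the Yki arrays and 6.29, 6.56 and 6.41 in the pan RNAi arrays. The other flanking gene that fell was Reph (−0.56 ± 0.12, adjusted p = 0.0147). The 2 that rose were bark (0.32 ± 0.06, adjusted p = 0.0138), which encodes a protein of tricellular junctions, and Cep97 (0.17 ± 0.05, adjusted p = 0.0417). The call of bark ended without Yki replicate 2 or 3, and that of Cep97 on leaving out any single array. CG31955 lies between odd and bowl, where 16 of 38 RefSeq genes were tested, and 3 fell and 1 rose, also near those shares. Besides CG31955 and for, the genes called were CG2816 (−0.54 ± 0.08) and cutlet (0.55 ± 0.06), both named after their values were seen.

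**Figure D3:**
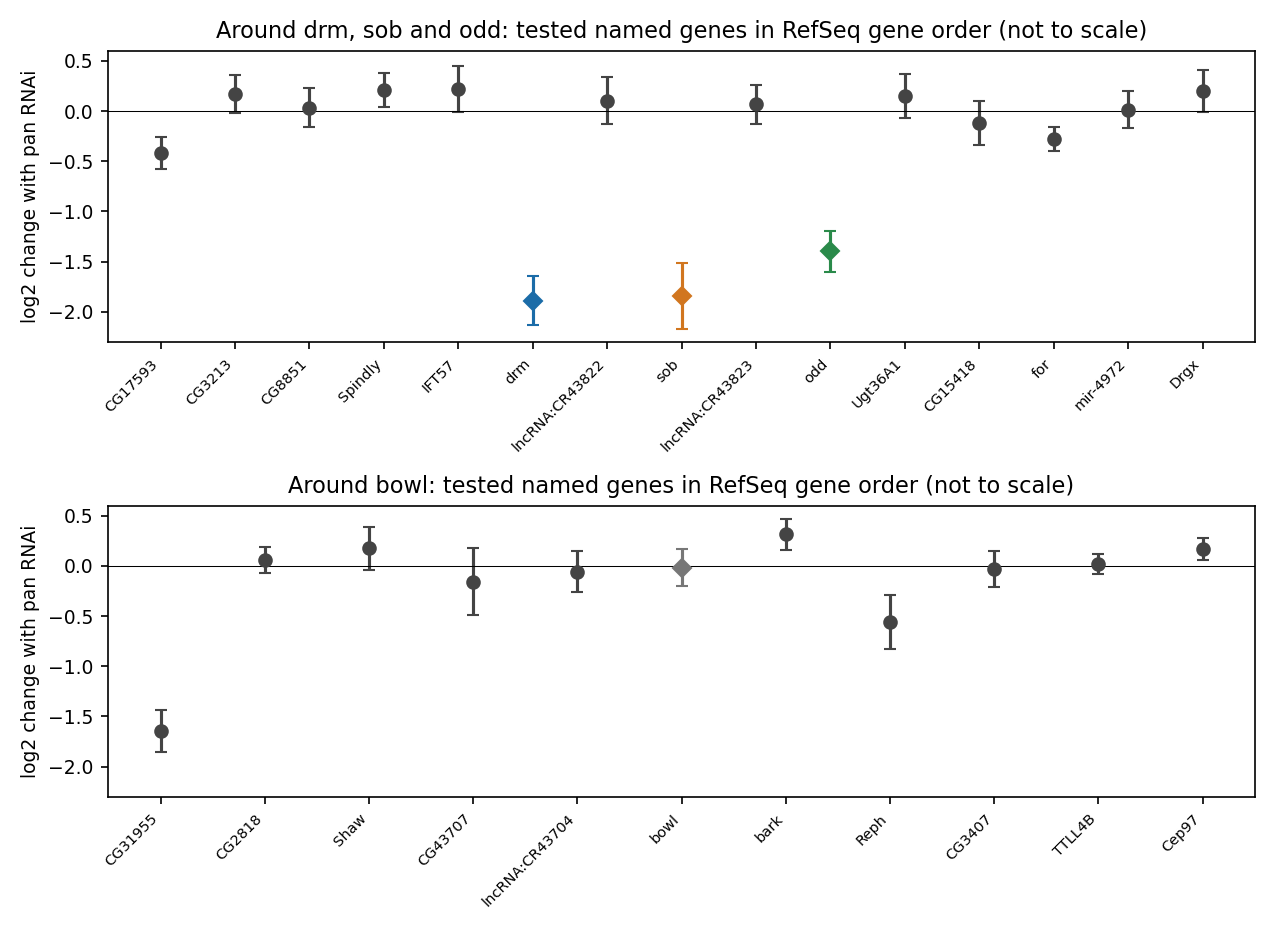
Log2 change with pan RNAi (y axis, points with 95% confidence intervals from limma) of tested named genes in RefSeq gene order (x axis, not to scale) around drm, sob and odd (upper panel) and around bowl (lower panel). The changes of −1.89, −1.84 and −1.40 stand among neighbours between −0.42 and 0.22, and CG31955 (−1.64) stands alone on the bowl side.

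The partners through which the family acts showed small differences. Of the 2 looked up, Lines and the corepressor Groucho, neither gene passed the test. The level of lin was 10.05 ± 0.05 without and 10.20 ± 0.05 with pan RNAi (0.14 ± 0.05, adjusted p = 0.078). It passed under 2 other settings, with each array centred on its median and with an intensity trend (lowest adjusted p = 0.0332). The median change of both genes was 0.12, beside 0.03 over all features tested.

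Genes of the leg segmentation, joint and proximodistal list, which pattern appendages along with odd, sob and drm, were mostly lower. Of 16 measured of 18, 10 fell and 2 rose, where 13.4% of all features tested fell and 12.1% rose. The median change was −0.86 beside 0.03 over all features. Falls that passed the test and reached 2-fold were found for 8 of the 16, against 1.27% of all features tested. This list and the others were chosen with earlier results of these data known, so nothing is read from such shares. With the lowest p-values were al (−1.70 ± 0.13, adjusted p = 0.000558), the wing pouch gene nub (−1.12 ± 0.09, adjusted p = 0.000584), ss (spineless), a transcription factor gene of antenna and distal leg (−1.50 ± 0.12, adjusted p = 0.000614), and bab2, a BTB-domain gene of the distal leg (−1.04 ± 0.09, adjusted p = 0.000802). The 2 that rose were dac and ap (0.58 and 0.37). Those not past the test included the joint genes dysf (8.99 ± 0.15 and 9.02 ± 0.07, adjusted p = 0.791) and TfAP-2 (7.70 ± 0.14 and 7.44 ± 0.14, adjusted p = 0.0976). The latter passed without Yki replicate 1.

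The Notch list, which holds the receptor pathway that acts upstream of odd, sob and drm in the leg and its direct targets, had 19 measured of 26. Of these, 8 fell and 1 rose, where 13.4% of all features tested fell and 12.1% rose, and the median change was −0.28. All 8 that fell were listed as targets: E(spl) genes, ct and vg. The signalling components mam, kuz, Psn, neur, dx and H did not pass the test in the reported fit. The genes N, Ser, Su(H), nct and mib1 were among those not measured. The Bearded-family targets E(spl)m6-BFM (−1.95 ± 0.17, adjusted p = 0.00078) and E(spl)m2-BFM (−1.27 ± 0.13, adjusted p = 0.00136) and the wing margin gene ct (−0.84 ± 0.08, adjusted p = 0.00115) fell. The gene that rose was fng, a glycosyltransferase gene that modifies Notch (0.34 ± 0.04, adjusted p = 0.0028). The ligand gene Delta was at 11.77 ± 0.03 and 11.66 ± 0.05 (adjusted p = 0.134). Among the 8 that fell were E(spl)m3-HLH, E(spl)m7-HLH and the pouch gene vg, whose calls ended without pan RNAi replicate 1, when 5 fell. With the replicate number as a block, the calls of E(spl)m3-HLH and vg ended and 6 fell. The call of E(spl)m3-HLH also ended without Yki replicate 3 or pan RNAi replicate 3. That of E(spl)m7-HLH also ended without Yki replicate 2 or pan RNAi replicate 3, and that of vg without Yki replicate 1 or 2.

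Among the other pair-rule and segment polarity genes, the list closest to the embryonic role of odd, 6 of 11 were measured, 1 fell and 1 rose, which is near the shares of all features tested (13.4% lower and 12.1% higher). The pair-rule zinc finger gene opa fell (−0.80 ± 0.07, adjusted p = 0.000777), and the posterior compartment gene inv rose (0.52 ± 0.05, adjusted p = 0.00106). The median change was 0.10. Its other members, ftz, eve, gsb and en, had changes of −0.16 to 0.21. Of 3 peripodial and stalk genes, 1 was measured, the JNK phosphatase gene puc, at 10.67 ± 0.04 without and 10.62 ± 0.14 with pan RNAi (adjusted p = 0.662).

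In the list of eye disc margin and retinal determination genes, a second tissue in which drm and bowl are known to act, 5 of 11 rose and 2 fell, with a median of 0.20. Of all features tested, 12.1% rose and 13.4% fell, with a median change of 0.03. The paralogous zinc finger genes tio (1.25 ± 0.09, adjusted p = 0.000556) and tsh (1.06 ± 0.07, adjusted p = 0.000378) rose, along with dac (adjusted p = 0.00177). The Pax gene eyg fell (−2.24 ± 0.17, adjusted p = 0.000561). Its level was 10.28 ± 0.08 without and 8.04 ± 0.37 with pan RNAi. The other fall, of ey (−0.22 ± 0.06, adjusted p = 0.0409), ended under 8 of 13 other settings, among them leaving out any 1 of 5 arrays.

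**Figure D4:**
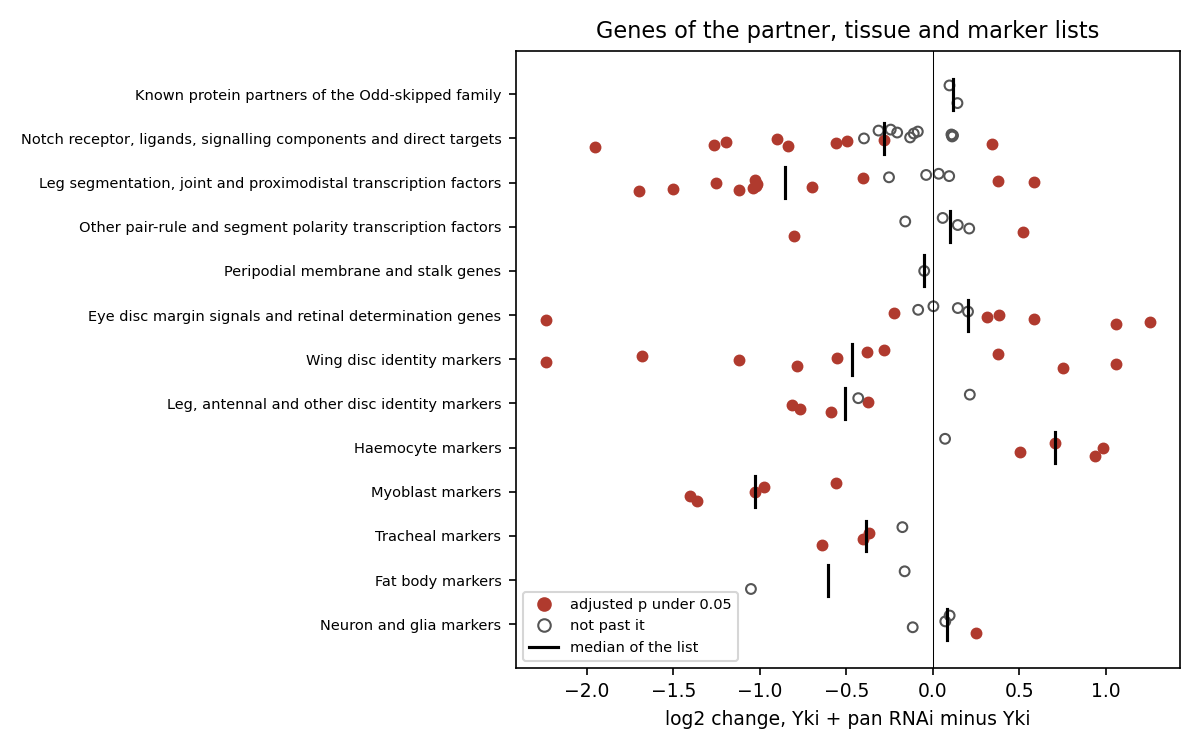
Log2 change with pan RNAi (x axis) of each measured gene of 13 lists (y axis), filled where the limma adjusted p was under 0.05 and open otherwise, with the median of each list as a black line. The medians run from −1.03 for myoblast markers and −0.86 for the leg list to 0.71 for haemocyte markers.

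Markers of position in the disc and of other cell types moved between the groups as well. All 10 measured wing disc markers passed the test, 3 up and 7 down (median −0.47). Of all features tested, 12.1% rose and 13.4% fell. The call of vg, however, ended with the replicate number as a block (the replicate block) and without Yki replicate 1, Yki replicate 2 or pan RNAi replicate 1. The 10 markers included zfh2 (0.75 ± 0.04, adjusted p = 0.000261) and tsh, which mark the hinge, and caup (−0.79 ± 0.05, adjusted p = 0.00032) and eyg, which mark the notum. Of 6 measured markers of leg, antennal and other discs, 4 fell and 0 rose (median −0.51), namely disco (−0.59 ± 0.07, adjusted p = 0.00276), disco-r (−0.77 ± 0.14, adjusted p = 0.0105), Sp1 (−0.82 ± 0.18, adjusted p = 0.0171) and Scr (−0.38 ± 0.10, adjusted p = 0.0365). Without Yki replicate 2, or without Yki replicate 3, 2 of them fell. The call of Scr also ended with median centring, with the replicate block and without any 1 of the 3 pan RNAi arrays. The mean log2 level of these markers was 7.21 to 7.45 in the Yki arrays and 6.67 to 7.06 in the pan RNAi arrays.

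All 5 measured myoblast markers fell (median −1.03), and their mean log2 level ran from 8.70 to 8.80 in the Yki arrays and from 7.62 to 7.73 in the others. Among them, htl (−1.37 ± 0.06, adjusted p = 0.000213), an FGF receptor gene, and zfh1 (−1.41 ± 0.07, adjusted p = 0.000222), a zinc finger homeodomain gene, changed most. Of 4 tracheal markers, 3 fell and 0 rose (median −0.38), led by the chitin-binding protein gene Gasp (−0.64 ± 0.06, adjusted p = 0.00125), and their mean level was 10.76 to 10.80 and 10.35 to 10.45. Of 5 haemocyte markers, 4 rose and 0 fell (median 0.71), with a mean level of 6.77 to 7.03 and 7.35 to 7.59. Hml had the lowest p (0.94 ± 0.13, adjusted p = 0.00425), and the call of He ended without Yki replicate 2, pan RNAi replicate 1 or pan RNAi replicate 2. Neither of 2 fat body markers passed the test. Lsp2 had the lower p (7.88 ± 0.88 and 6.82 ± 0.09, adjusted p = 0.0926), and it passed without Yki replicate 2 (adjusted p = 0.0278). Of 4 neuron and glia markers, elav alone changed (0.25 ± 0.05, adjusted p = 0.018). That call ended with the replicate block and without Yki replicate 2, pan RNAi replicate 1 or pan RNAi replicate 2. Beside the counts of these lists, 13.4% of all features tested fell and 12.1% rose. Some of the markers were dim. Without the dimmest 20% of features, 4 of the leg, antennal and other disc markers remained, of which 2 fell. Of the haemocyte markers 3 remained, and all 3 rose. The part of these cell types and disc regions in the lower levels of drm, sob and odd was not tested.

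The changes of drm, sob and odd were also taken under 14 other settings, including centring of the arrays, quantile normalization and leaving out each array. Under each, they moved by less than the SD pooled over the 2 groups, which was 0.15 for drm, 0.21 for sob and 0.12 for odd. They ranged from −1.95 to −1.78 for drm, from −1.96 to −1.72 for sob and from −1.44 to −1.31 for odd. The range for bowl was −0.07 to 0.05.

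**Figure D5:**
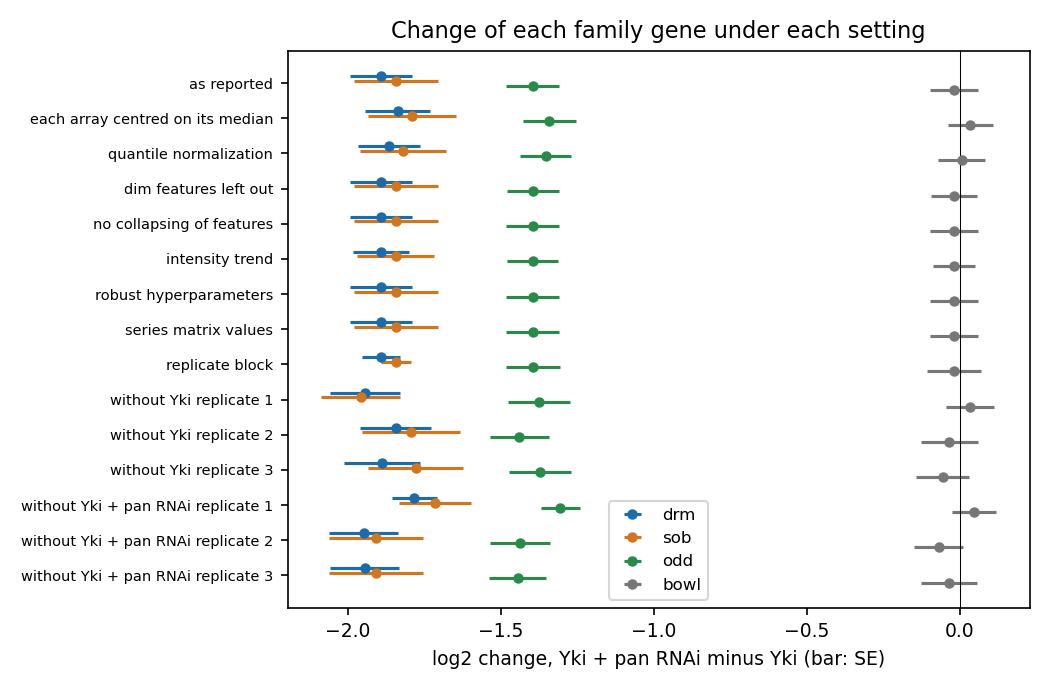
Log2 change with pan RNAi (x axis, points with SE) of drm, sob, odd and bowl under the setting reported here and 14 others (y axis). The change of odd is the smallest in size of the 3 in every setting plotted, and bowl stays between −0.07 and 0.05.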

How the data were processed

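Per the labels, TRIzol was used to isolate total RNA of wing discs, and the label was biotin. The authors deposited gene-level log2 values, in a matrix of the series and in the series matrix, which differ by at most 5e-09. The sources used here do not state the background correction, normalization or filters. Per the labels, the submitters used limma and required an adjusted p under 0.05 plus a log2 fold change of 1 or more.

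Features with 1 gene symbol in the platform annotation were named, with symbols updated through a table of RefSeq genes (assembly Release 6 plus ISO1 MT). No source used here names the build of the arrays, so that table served for names and gene order only. For 22 genes with more than 1 feature, the brightest was kept, which left 11303 features, 10117 of them named. Groups, taken from the sample titles, were compared with limma 3.58.1 in R 4.3.3 (default eBayes, no covariate), adjusted by Benjamini-Hochberg over all features. The number of arrays limits the precision. The code was tested on simulated data. Alternatives changed the array scaling, the filter on dim features, the variance model, the value table, the pairing and the arrays used.

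The members and the 13 gene lists were chosen with earlier results of these data known. Lists share members, such as nub and ap (leg and wing disc lists), vg, dac, tsh and eyg. Of each list, a rule named up to 4 members that passed the adjusted p, in order of p (or the 1 with the lowest p), with 5 neighbours on each side and the 8 genes nearest in profile. Other members named with their values (ap, nub and vg as markers, dysf, TfAP-2, Delta, E(spl)m3-HLH, E(spl)m7-HLH, ey, ftz, eve, gsb and en) were picked after their values were seen. Dl was matched as Delta.

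Arrays of the same replicate number were not treated as pairs in the reported fit. Correlations of same-numbered arrays' deviations from their group means were −0.13, −0.10 and 0.16, which cannot settle whether the arrays were paired. With the replicate block, the SE was 0.06 for drm and 0.05 for sob, against 0.10 and 0.14 in the reported fit. It was 0.09 for both odd and bowl, against 0.09 and 0.08. Promoter and protein sequences were not used here, so the planned motif and protein descriptions were not made.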

Additional observations from a re-analysis of the deposited data

How the results depend on the processing

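The changes of drm, sob and odd kept their direction under all 14 alternatives run. They moved by less than the SD pooled over the groups. The change of bowl turned sign, within its error, with each array centred on its median (0.036), with quantile normalization (0.0070), without Yki replicate 1 (0.034) and without pan RNAi replicate 1 (0.047). It ranged from −0.069 to 0.047 on leaving out single arrays, and its adjusted p was 0.569 to 0.956 over all alternatives. The number of features past the adjusted p was 2887 and ranged from 1744 to 2435 on leaving out single arrays, with 1815 without Yki replicate 2, 1810 without Yki replicate 3 and 1744 without pan RNAi replicate 1. Fewer arrays enter those fits. The number at least 2-fold changed was 173 and ranged from 147 to 196 on leaving out single arrays. Of 85 distinct measured genes of the lists, 51 were called, 14 higher and 37 lower, and 45 to 50 on leaving out single arrays. Of all features tested, 12.1% were called higher and 13.4% lower. The lists were chosen with earlier results of these data known, so nothing is read from these counts. With the replicate block, 2159 features passed the adjusted p and bowl had an adjusted p of 0.9. The replicate block moved no change of a family gene, since the groups are balanced. Centring each array on its median moved the median change of all features from 0.03 to 0.09. How far signal over background limits these values is not known, since no background values were used here.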
